A study of Homo sapiens with 34 samples.

Results

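The regions that a SMARCA1 antibody and an Orc6 antibody marked in the same kind of cell were compared in 4 libraries, 2 per antibody, of the 34 samples in the series. The libraries were chosen by their labels: U2OS cells carrying the control siRNA siGl3, non-treated, SMARCA1 replicates 1 and 2 against Orc6 replicates 1 and 2. U2OS is a human osteosarcoma line, and every group used below comes from it. The cells had the siRNA for 72 h, were held by a double thymidine block and were released for 3 h, which the series' design text calls early S phase. The 4 lists hold 105095 called regions on chromosomes 1 to 22 and X, of 978086 in the 20 libraries with a list and the series' own Orc6 list. Set beside them where a result needs it were OGG1 libraries of the same siGl3 non-treated cells, SMARCA1 libraries of non-treated cells carrying siOrc6, an siRNA against Orc6, and SMARCA1 and Orc6 libraries of siGl3 cells given 5 mM H2O2 for 30 min, each n = 2.

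SMARCA1, also called SNF2L, is a motor protein of the ISWI family of chromatin remodellers, which use ATP to slide and space nucleosomes. Orc6 is a small subunit of the origin recognition complex (ORC), which marks the places where DNA replication can begin and loads the MCM helicase there before S phase. OGG1, the third antibody target, is a glycosylase that cuts oxidised guanine out of DNA. In CUT&RUN an antibody held on chromatin recruits a nuclease that releases the DNA beside it, so a called region is a stretch where more fragments were released than the caller's threshold asked for. The series title gives the link between Orc6 and ISWI during S phase as the study's subject.

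The promoters that carry the comparison are printed first, from RefSeq on GRCh38.p14, from 250 bases before to 50 bases after the gene's start, 5′ to 3′. Capitals mark matches, on either strand, to the letters CCAAT (the CCAAT box), to TATAAA (the TATA box), to TGANTCA, which binds AP-1, or to GGAATG, which binds TEAD, and overlapping matches run together. PSG4 (chr19:43205589-43205888 on the minus strand) and LFNG (chr7:2512279-2512578 on the plus strand) are shown first. They were the 2 genes with SMARCA1 in both libraries and no Orc6 region within 1 kb of a gene end. DKK1 (chr10:52314031-52314330 on the plus strand) is shown because its locus ranked near the top of all 4 lists. That locus begins downstream of the printed bases, of which a separate region of SMARCA1 replicate 2 covered 223 and no region of the other 3 libraries covered any. The histone genes H2AC11 (chr6:27132793-27133092 on the plus strand) and H2AC20 (chr1:149886668-149886967 on the plus strand) stand for a gene family described below, and were chosen after their values were seen.
PSG4: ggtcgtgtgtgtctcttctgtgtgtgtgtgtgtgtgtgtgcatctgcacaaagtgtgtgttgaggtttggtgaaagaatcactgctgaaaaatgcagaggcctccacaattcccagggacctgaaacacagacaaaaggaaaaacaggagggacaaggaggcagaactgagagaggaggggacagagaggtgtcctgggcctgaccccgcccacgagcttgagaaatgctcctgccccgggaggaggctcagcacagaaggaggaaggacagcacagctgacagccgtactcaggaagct
LFNG: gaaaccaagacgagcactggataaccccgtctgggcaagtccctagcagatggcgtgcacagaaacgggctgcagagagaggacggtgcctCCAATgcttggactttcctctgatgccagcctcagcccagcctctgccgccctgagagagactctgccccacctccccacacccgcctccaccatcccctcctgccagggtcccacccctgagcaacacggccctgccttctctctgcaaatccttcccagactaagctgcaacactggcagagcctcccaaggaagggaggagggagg
DKK1: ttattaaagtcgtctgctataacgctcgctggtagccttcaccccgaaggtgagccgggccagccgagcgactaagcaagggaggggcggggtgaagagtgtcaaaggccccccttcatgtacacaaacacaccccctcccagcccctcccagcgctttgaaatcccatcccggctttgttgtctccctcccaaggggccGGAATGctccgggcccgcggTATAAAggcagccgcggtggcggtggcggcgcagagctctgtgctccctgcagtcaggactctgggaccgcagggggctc
H2AC11: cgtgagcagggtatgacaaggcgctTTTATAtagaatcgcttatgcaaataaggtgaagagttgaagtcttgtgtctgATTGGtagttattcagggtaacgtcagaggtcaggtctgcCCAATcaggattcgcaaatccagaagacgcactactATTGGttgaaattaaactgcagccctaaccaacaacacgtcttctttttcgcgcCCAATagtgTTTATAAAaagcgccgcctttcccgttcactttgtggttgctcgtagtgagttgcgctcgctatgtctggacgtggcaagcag
H2AC20: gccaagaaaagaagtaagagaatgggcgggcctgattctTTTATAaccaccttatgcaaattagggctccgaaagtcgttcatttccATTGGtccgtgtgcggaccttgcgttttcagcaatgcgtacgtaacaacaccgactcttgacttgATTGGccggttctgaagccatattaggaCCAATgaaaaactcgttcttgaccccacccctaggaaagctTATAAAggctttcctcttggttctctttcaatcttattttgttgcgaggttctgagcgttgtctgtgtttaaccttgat
The PSG4 promoter held none of these motifs and the LFNG promoter 1 CCAAT match. The H2AC11 promoter held 7 matches and the H2AC20 promoter 5, all of them of the CCAAT box or the TATA box.

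The SMARCA1 lists were short and the Orc6 lists long. SMARCA1 had 6992 and 11036 regions in replicates 1 and 2, against 23375 and 63692 Orc6 regions. Both SMARCA1 lists were shorter than both Orc6 lists, and the geometric mean of the Orc6 lists was 4.39 times that of the SMARCA1 lists. It was 7.25 times without Orc6 replicate 1 and 2.66 times without Orc6 replicate 2. The SMARCA1 regions covered 31.8 and 43.6 Mb, or 1.05% and 1.44% of the genome span, against 142.8 and 289.6 Mb, or 4.71% and 9.56%, for Orc6. Orc6 thus covered 5.46 times as many bases, again with no overlap between the groups. With 2 libraries against 2 the exact two-sided permutation test cannot go below p = 0.333, which both differences gave, and when libraries are exchanged within a replicate number alone the smallest is p = 0.5, which both gave as well (exact test). No measure of whole libraries can therefore pass a threshold, and Benjamini-Hochberg adjustment over the 10 measures compared left p = 0.556 at best (exact test). The replicate number is also the labels' batch, and nothing in them says whether the 2 libraries of an antibody came from separate cultures, so these p-values measure the spread between libraries alone. The lists hold no read counts, so the depth behind them is unknown.

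SMARCA1 regions were narrow beside Orc6 replicate 1 and close in width to Orc6 replicate 2. The median width was 3789.5 and 3231 bp for SMARCA1, against 5054 and 3491 bp for Orc6, so the groups overlap. The difference of the means was -762 bp (exact two-sided permutation p = 0.667, 0.5 with the block), and without Orc6 replicate 1 it was 19.3 bp. Regions over 10 kb wide made up 4.19% and 3.23% of the SMARCA1 lists, against 9.82% and 5.63% of the Orc6 lists. The widest region had 44770 and 44526 bp in the SMARCA1 lists and 88163 and 134343 bp in the Orc6 lists.

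**Figure D1:**
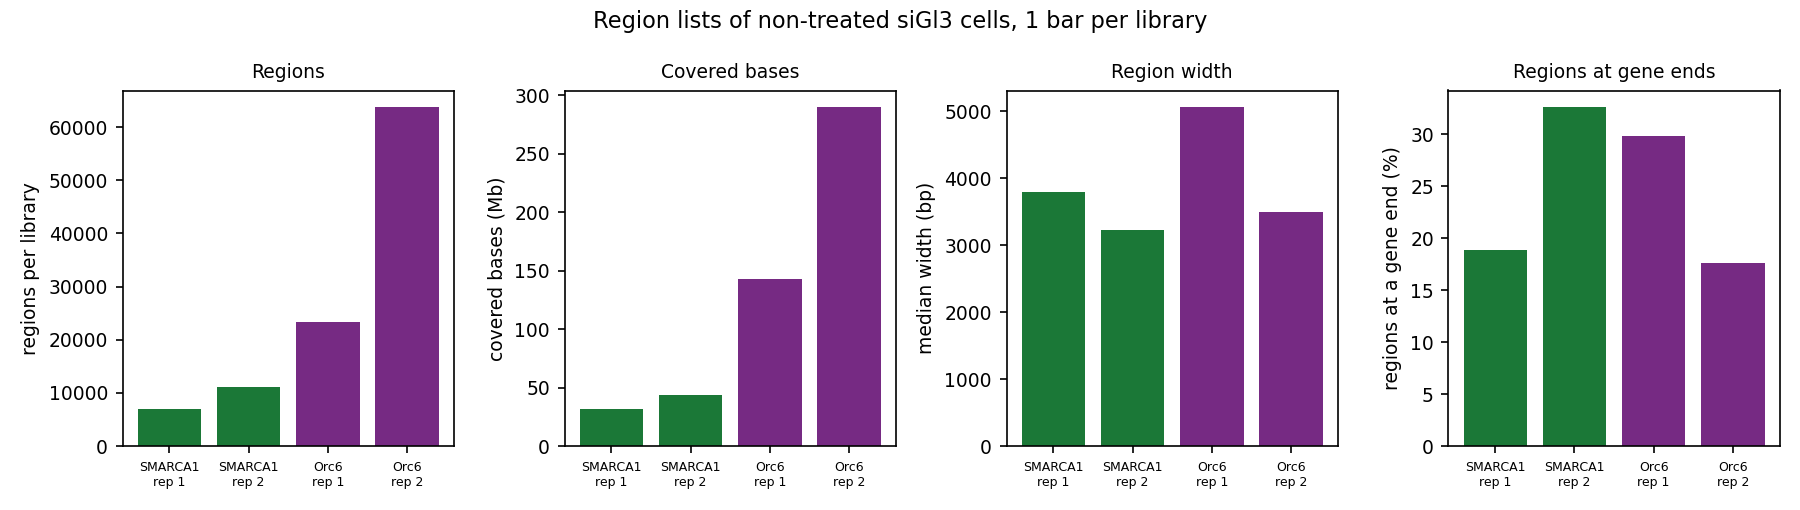
Number of regions, bases covered in Mb, median region width in bp and percent of regions within 1 kb of an end of a protein-coding gene, 1 bar per library, SMARCA1 in green and Orc6 in purple. The SMARCA1 lists of 6992 and 11036 regions are both shorter than the Orc6 lists of 23375 and 63692 regions, while the share at gene ends differs as much within an antibody as between them.

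Most SMARCA1 regions lay on an Orc6 region. Orc6 regions of the same replicate number overlapped 83.7% of SMARCA1 regions in replicate 1 (5852 of 6992) and 98.1% in replicate 2 (10824 of 11036), where 1 shared base counts as overlap. SMARCA1 regions in turn overlapped 23.7% and 16.2% of the Orc6 regions. The shares followed the Orc6 library and not the number: with crossed numbers, Orc6 replicate 2 overlapped 98.7% of SMARCA1 replicate 1 and Orc6 replicate 1 overlapped 83.8% of SMARCA1 replicate 2. Within an antibody the shares were as follows. SMARCA1 replicate 2 overlapped 72.0% of SMARCA1 replicate 1, and the reverse share was 46.0%. Orc6 replicate 2 overlapped 88.7% of Orc6 replicate 1, and the reverse share was 35.2%.

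A longer list overlaps more by its length, so the strongest Orc6 and OGG1 regions were taken up to the same number of bases and set against SMARCA1. At 140 Mb, Orc6 overlapped 83.1% and 77.4% of SMARCA1 regions in replicates 1 and 2, against 37.1% and 34.8% for OGG1 of the same cells. At 100 Mb, Orc6 overlapped 71.1% and 59.3%, against 25.4% and 24.3% for OGG1. At each of the 8 amounts tried, from 10 to 140 Mb, the Orc6 share was above the OGG1 share in both replicates. The full OGG1 lists, of 165.7 and 244.3 Mb, overlapped 44.0% and 66.5% of the SMARCA1 regions of the same number. OGG1 regions were fewer and wider than Orc6 regions, with medians of 6591 and 7494 bp, and the part of width in this contrast was not tested.

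**Figure D2:**
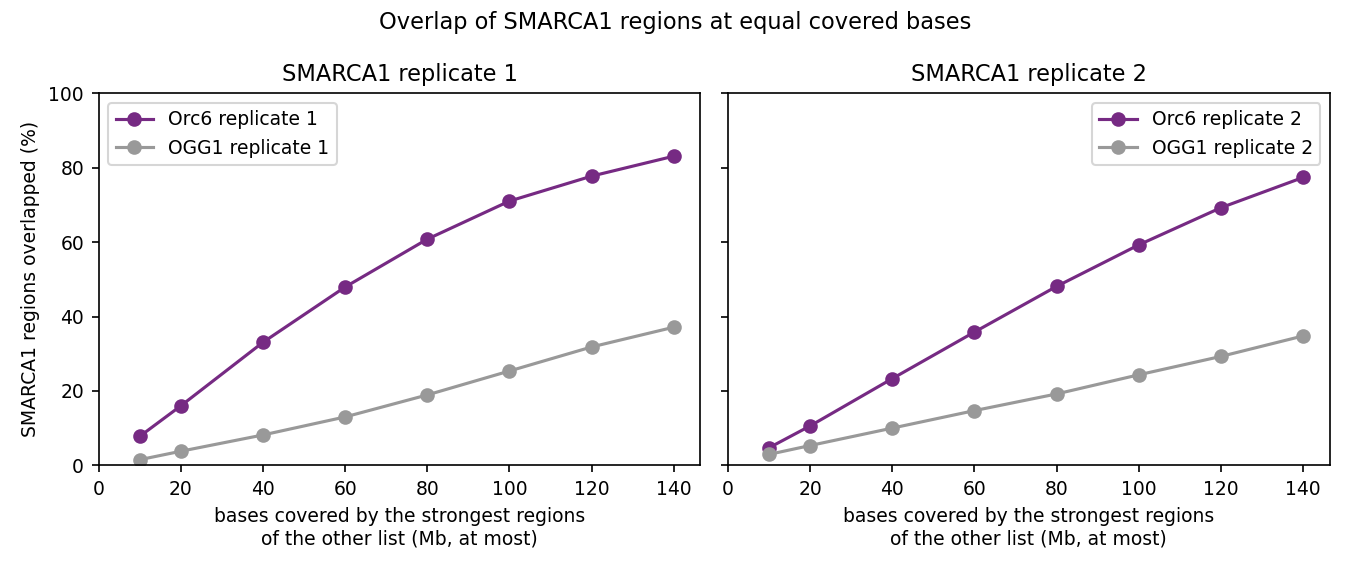
Percent of SMARCA1 regions (vertical axis) overlapped by the strongest Orc6 regions (purple) or OGG1 regions (grey) of the same replicate number, against the bases those regions cover in Mb (horizontal axis), 1 panel per replicate. The Orc6 curve lies above the OGG1 curve at all 8 amounts in both panels, and at 140 Mb the shares are 83.1% and 77.4% for Orc6 and 37.1% and 34.8% for OGG1.

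The one-sided nesting did not hold once the lists were made equal. When every library was cut to its 6992 strongest regions, Orc6 overlapped 56.5% of SMARCA1 regions on average over the same-number pairs, and SMARCA1 overlapped 50.2% of Orc6 regions. When each list was kept to its strongest regions up to 31.8 Mb, the shares were 25.4% and 72.0%, so more of the Orc6 regions met SMARCA1 than the reverse. These strongest Orc6 regions were few and broad: the median width then differed by -11325.5 bp, SMARCA1 minus Orc6.

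Orc6 regions that met SMARCA1 sat at the top of the Orc6 lists. In the lowest decile of Orc6 regions by total signal, SMARCA1 overlapped 7.19% in replicate 1 and 1.00% in replicate 2. In the highest decile it overlapped 67.4% and 67.3%. The share was higher in each decile than in the one below it in both replicates. Overlapped Orc6 regions had a median rank at percentile 77.6 and 86.9 of their list, against 42.1 and 42.8 for the others. They were also wider, with medians of 6133 and 5679 bp against 4892 and 3321 bp, and width and total signal move together in such lists.

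**Figure D3:**
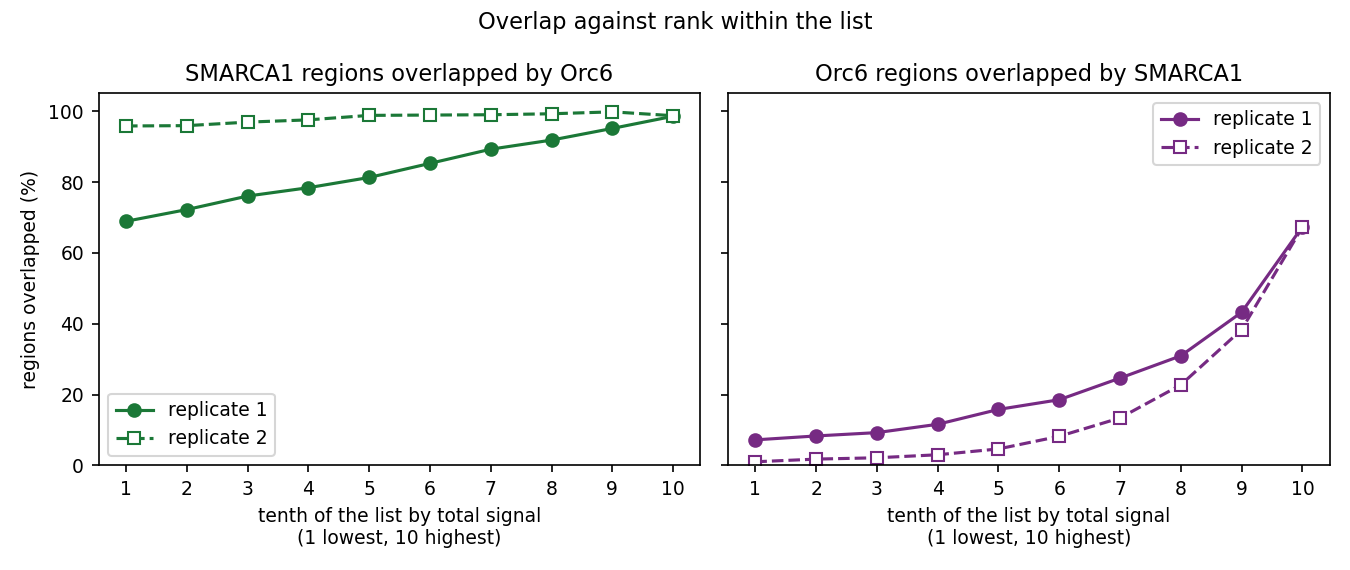
Percent of regions overlapped by the other antibody of the same replicate number (vertical axis) in each decile of the list by total signal, 1 lowest and 10 highest (horizontal axis), SMARCA1 regions left and Orc6 regions right. The Orc6 share climbs to 67.4% and 67.3% in the highest decile, while SMARCA1 replicate 2 stays between 95.8% and 99.8%.

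The SMARCA1 lists showed a weaker gradient of the same sort. In replicate 1, Orc6 overlapped 68.9% of the lowest decile and 98.6% of the highest. In replicate 2 the share was 95.8% in the lowest decile and 98.7% in the highest. The SMARCA1 regions that Orc6 of the same number missed numbered 1140 and 212, and their median rank was at percentile 29.4 and 24.2. They lay a median of 18545.5 and 4415.5 bp from the nearest Orc6 region, and 39.6% and 65.1% of them were within 10 kb of one. Few were at gene ends, 6.93% and 20.3%, against 21.2% and 32.8% of the overlapped SMARCA1 regions.

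Within a shared stretch the points of highest signal mostly lay within 1 kb of each other. For SMARCA1 regions that met Orc6, the point of highest SMARCA1 signal lay a median of 644 and 384 bp from that of the Orc6 region, and within 1 kb in 61.1% and 72.6% of cases. The SMARCA1 region was the narrower, with a median width of 0.639 and 0.575 times that of its Orc6 region. It lay wholly inside the Orc6 region in 48.6% and 56.4% of cases. In 2.63% and 4.02% of cases 1 SMARCA1 region spanned more than 1 Orc6 region. The pairs were chosen by their overlap, which bounds the distance and favours wide Orc6 regions. No other pair of lists was measured in this way.

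The share of regions at gene ends differed as much between replicates of 1 antibody as between the antibodies. A region was counted at a gene end when it came within 1 kb of either end of 1 of 19974 protein-coding genes of the GRCh38.p14 annotation. The share was 18.9% and 32.6% for SMARCA1, against 29.8% and 17.6% for Orc6, so SMARCA1 was lower in the replicate 1 pair and higher in the replicate 2 pair. The difference of the means was 1.98 points (exact two-sided permutation p = 0.667, 1 with the block). Its direction was the opposite without SMARCA1 replicate 2, at -4.89 points, and without Orc6 replicate 2, at -4.11 points. It was also the opposite among the strongest 6992 regions of each library, at -11.7 points. The point of highest signal lay within 1 kb of a start site in 9.86% and 23.4% of SMARCA1 regions, against 17.6% and 9.66% of Orc6 regions. It lay in the body of a gene, away from its ends, in 39.2% and 31.9% of SMARCA1 regions, against 40.4% and 45.9% of Orc6 regions. Start sites, taken from the RefSeq promoter table, were known for 15812 genes, none on chromosome 8. The shares by point of highest signal therefore leave out chromosome 8. They rest on 6331 and 10165 SMARCA1 regions, against 21623 and 59437 Orc6 regions.

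All regions of the 4 lists merged into 62829 separate loci. Both antibodies in all 4 libraries marked 4179 of them (6.65%), Orc6 in both libraries with SMARCA1 in neither marked 9997 (15.9%), and SMARCA1 in both with Orc6 in neither marked 9. A further 39054 loci (62.2%) came from Orc6 replicate 2 alone. Of the 4545 loci with SMARCA1 in both libraries, 91.9% had Orc6 in both. Of the 19022 loci with Orc6 in both, 21.97% had SMARCA1 in both and 47.4% in at least 1 library. The 9 SMARCA1 loci rested on Orc6 replicate 2: without it there were 389, and without regions wider than 10 kb there were 644. Without SMARCA1 replicate 1 there were 127, and without SMARCA1 replicate 2 there were 60. Without Orc6 replicate 1 there were 22, and the loci with Orc6 but no SMARCA1 then numbered 51603. Without SMARCA1 replicate 1, the loci with both antibodies in every remaining library numbered 8105.

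The 5 strongest SMARCA1 loci with no region in either Orc6 library were away from gene ends. The first was chr4:41152400-41165013, 12614 bp inside the body of APBB2, an adaptor protein of the amyloid precursor protein, at percentiles 98.7 and 98.3 of the SMARCA1 lists (100 is the highest total signal). A pair of neighbours, chr22:27205415-27221520 and chr22:27197491-27204808, lay 526756 and 543468 bp from MN1, the nearest protein-coding gene, at percentiles 90.8 and 98.0 and at 87.6 and 91.5. The next, chr9:37470064-37475853 at percentiles 88.6 and 79.3, was 4613 bp from ZBTB5, and chr14:68797538-68802809 at 60.5 and 60.1 was 1294 bp from ZFP36L1, an RNA-binding protein of mRNA decay. These 5 loci also had a region in both OGG1 libraries and in both SMARCA1 libraries of siOrc6 cells. The nearest region of either Orc6 library lay between 200 and 28847 bp away from each of the 9. The series' own Orc6 list, which has no sample named for it, had a region at 44.4% of the 9.

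The loci with the highest ranks in all 4 lists were broad. The first, chr4:30710194-30804500, was 94307 bp wide at an end of PCDH7, a cell adhesion protein, at percentiles 100 and 99.9 for SMARCA1, against 100 and 100 for Orc6. It was followed by chr11:86716994-86751089, 39981 bp from PRSS23, a secreted protease, and by chr11:12159071-12192729 in the body of MICAL2, an enzyme that takes apart actin filaments. The next pair, chr20:54112864-54163314 and chr10:52314748-52346414, were at ends of CYP24A1, the hydroxylase that inactivates vitamin D, and of DKK1, a secreted inhibitor of Wnt signalling whose promoter is printed above. Among the loci with Orc6 in both libraries and no SMARCA1, the strongest was chr20:28494098-28499283, at percentiles 99.7 and 99.6 and 2314143 bp from the nearest protein-coding gene. Another of the 5 strongest, chr17:60632853-60666623, was at an end of PPM1D, the phosphatase that switches off p53 signalling, with Orc6 at percentiles 98.5 and 98.5, while another end of that gene had both antibodies.

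Loci shared by both antibodies were broader than those with Orc6 alone, with medians of 10878 and 6101 bp. They were at gene ends in 32.2% of cases, against 30.6%, but among loci 5 to 8 kb wide in 24.0%, against 30.7%. A shared locus joins regions of every list, and a broad locus meets any list more readily, so this width difference arises in part by construction. More of them had a region in other libraries of the series. OGG1 of the same cells marked 55.5% of the shared loci in both libraries, against 38.7% of the Orc6 loci without SMARCA1. SMARCA1 of siOrc6 cells marked 61.9% against 25.3%, and SMARCA1 of cells given H2O2 91.0% against 48.0%. The siOrc6 lists bear a mark in their names that they were submitted again, and the other lists do not. Orc6 of cells given H2O2 marked 97.7% against 77.2%. Among loci 5 to 8 kb wide (971 shared, 4009 with Orc6 alone), where width is nearly the same, the shares were 42.1% against 37.9% for OGG1, 46.7% against 24.97% for SMARCA1 of siOrc6 cells and 83.4% against 42.4% for SMARCA1 after H2O2. These libraries took no part in defining the loci, and no test was made on the shares.

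The nesting was less one-sided in cells given H2O2. There Orc6 overlapped 62.2% and 71.7% of SMARCA1 regions of the same number, and SMARCA1 overlapped 50.1% and 51.2% of Orc6 regions. The SMARCA1 lists of these cells were the longer of the pair, with 69927 and 47072 regions against 52937 and 37154 for Orc6, and their median widths were 1270 and 1469 bp against 4670 and 7174.5 bp.

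A protein-coding gene was called occupied in a library when a region touched a gene end. SMARCA1 occupied 7.88% and 21.7% of the 19974 genes, against 39.6% and 55.9% for Orc6, a difference of -33.0 points (exact two-sided permutation p = 0.333, the smallest possible, and 0.5 with the block). Both SMARCA1 values were below both Orc6 values, but at equal covered bases the direction was the opposite, at 5.20 points. SMARCA1 in both libraries and Orc6 in none was found at 2 genes, 0.01% of those examined. Orc6 in both and SMARCA1 in none was found at 3370 genes (16.9%), both antibodies in all 4 libraries at 1315 (6.58%), and no region in any of the 4 at 8246 (41.3%). Of the 1356 genes with SMARCA1 in both libraries, 97.0% had Orc6 in both, and of 7375 with Orc6 in both, 17.8% had SMARCA1 in both. At the same end of the gene, all 4 libraries met at 1276 genes. The count of SMARCA1 genes without Orc6 was 40 without Orc6 replicate 2, 32 without SMARCA1 replicate 1 and 5 without SMARCA1 replicate 2. Without SMARCA1 replicate 1 the genes with both antibodies numbered 3834, without SMARCA1 replicate 2 those with Orc6 alone numbered 5889, and without Orc6 replicate 1 they numbered 6672. A library left out drops a condition of the rule, so none of these counts could fall. In lists of 6992 regions each, the 3 counts were 97, 618 and 821.

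The 2 genes with SMARCA1 and no Orc6 at a gene end were PSG4, a pregnancy-specific glycoprotein of the placenta, and LFNG, a Golgi enzyme that adds sugars to Notch receptors. The SMARCA1 regions at PSG4 were at percentiles 73.4 and 89.8 of their lists and 4055 and 6005 bp wide. Those at LFNG were at percentiles 66.9 and 94.8 and 4937 and 6657 bp wide. In both genes a region came within 1 kb of the start site in both SMARCA1 libraries. The nearest regions of Orc6 replicates 1 and 2 lay 2855 and 1811 bp from the printed PSG4 promoter. For LFNG they lay 9969 and 5218 bp away. None of the 9 merged loci with SMARCA1 alone was at a gene end, so absence of Orc6 at these genes is local to the gene end. OGG1 had a region at PSG4 in both libraries and at LFNG in 1. PSG4 is 1 of a cluster of near-identical genes, among which reads can be misplaced.

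The genes with both antibodies were led by CYP24A1 and DKK1, described above. The 10 with the highest mean percentile over the 4 lists were CYP24A1, DKK1, LIF, LOC124904930, HORMAD2, DCBLD2, AMIGO2, PCED1B, ANXA2 and IRF2BP2. LIF, a cytokine of the interleukin family, had SMARCA1 regions at percentiles 99.5 and 100 and Orc6 regions at 99.9 and 99.5. ANXA2, a membrane-binding annexin, had SMARCA1 at 98.3 and 99.1 and Orc6 at 99.6 and 99.8. IRF2BP2, a corepressor, had SMARCA1 at 98.1 and 98.9 and Orc6 at 99.3 and 99.9. At these 3 genes the SMARCA1 regions were 13160 to 40919 bp wide and the Orc6 regions 19002 to 36316 bp. AMIGO2 and PCED1B lie side by side and share the same regions.

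The 10 highest-ranking genes with Orc6 and no SMARCA1 were HOATZ, LEAP2, AGO2, MAP2K1, M1AP, UNCX, PPM1E, HOXC8, ENOSF1 and TGFBRAP1. AGO2, the slicing Argonaute of RNA interference, had Orc6 at percentiles 99.3 and 99.7. MAP2K1, the kinase MEK1, had Orc6 at 99.0 and 99.7, and HOXC8, a homeobox gene, at 99.1 and 99.0. At MAP2K1 and HOXC8 the absence is local to the gene. The broad Orc6 regions at MAP2K1 also reached RPL4, a ribosomal protein gene where SMARCA1 stood at percentiles 83.8 and 91.9. Those at HOXC8 reached HOXC4 to HOXC6, where SMARCA1 stood at 63.5 and 92.4. Of the 3370 genes, 374 (11.1%) had an Orc6 region that met a SMARCA1 region farther along.

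The replication-dependent histone genes, which supply histones in S phase, had both antibodies more often than genes at large, and none had Orc6 in both libraries with SMARCA1 in neither. SMARCA1 occupied 21 and 35 of the 69 genes, against 34 and 40 for Orc6. As shares these are 30.4% and 50.7% for SMARCA1, against 49.3% and 58.0% for Orc6, so the antibodies were closer here than over all genes. Both antibodies in all 4 libraries were found at 19 genes (27.5%, beside 6.58% of all genes) and Orc6 in both libraries without SMARCA1 at 0 (beside 16.9%). No region was found at 29 (42.0%, near the 41.3% of all genes). At H2AC14, H2BC14 and H3C6 Orc6 was present in replicate 2 alone and SMARCA1 in neither library. OGG1 occupied 6 and 3 of the 69, although it occupied 51.6% and 55.6% of all protein-coding genes. The genes lie in clusters and share regions: the 19 genes rest on 10 loci, and the SMARCA1 counts on 12 and 16 regions, against 13 and 16 for Orc6. Most of these genes are short, so the windows at their ends run together and less sequence was searched than at most genes. Near-identical coding sequences in this family make the placing of reads uncertain.

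Within the family the occupied genes ran together in blocks. In the largest cluster on chromosome 6, of 32 genes from H1-1 to H4C8, SMARCA1 occupied 10 and 15 genes, against 15 and 17 for Orc6 and 0 and 0 for OGG1. A run of 7 neighbours there, from H1-3 to H2BC10, had no region in any of the 4 libraries. At H2AC11, whose promoter is printed above and which shares its regions with the divergent H2BC11, SMARCA1 was at percentiles 88.4 and 95.3, against 99.6 and 99.8 for Orc6. At H3C2 and H4C2 SMARCA1 was at 90.3 and 99.2, against 98.5 and 98.7 for Orc6. At H2AC20 on chromosome 1 SMARCA1 was at 90.2 and 95.7, against 94.0 and 98.1 for Orc6. The linker histone genes H1-2 and H1-4 had both antibodies as well. The count of 19 was 32 without SMARCA1 replicate 1, 30 with windows of 5 kb and 8 without regions wider than 10 kb. A library left out or a wider window could not lower this count, and leaving out regions could not raise it.

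**Figure D4:**
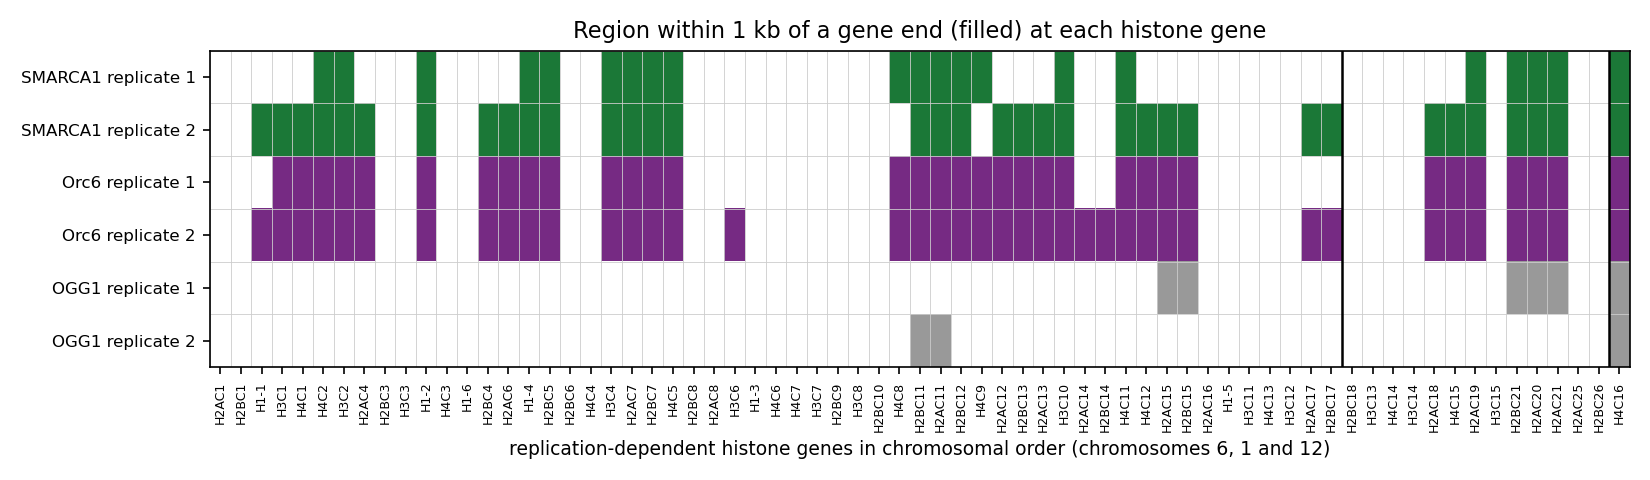
Each column is 1 of 69 replication-dependent histone genes in chromosomal order, and each row 1 library of non-treated siGl3 cells, with a filled cell where a region came within 1 kb of a gene end. SMARCA1 (green, 21 and 35 genes) and Orc6 (purple, 34 and 40) fill blocks of neighbouring genes, and OGG1 (grey) fills 6 and 3 cells.

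Transfer RNA genes showed the opposite. These short genes are transcribed by RNA polymerase III and were not part of any gene list: they were picked out after the gene types were seen. SMARCA1 occupied 13 and 45 of 443, or 2.93% and 10.2%, against 191 and 243, or 43.1% and 54.9%, for Orc6. Orc6 was above SMARCA1 in each pair, and the SMARCA1 shares lay below its shares over protein-coding genes while the Orc6 shares lay close to theirs. Orc6 in both libraries with no SMARCA1 was found at 134 tRNA genes (30.2%, beside 16.9% of protein-coding genes), and both antibodies in all 4 at 7 (1.58%, beside 6.58%). The windows at the ends of such short genes run together, so less sequence was searched per gene than at most protein-coding genes. The 134 genes rest on 80 loci. OGG1 occupied 25.5% and 27.8%. The Orc6 regions at tRNA genes ranked high, with medians at percentiles 70.0 and 88.5 of their lists, while the few SMARCA1 regions there had medians of 16.8 and 51.5.

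Away from protein-coding genes a smaller share of tRNA genes had a region of either antibody. Of the 314 tRNA genes over 5 kb from any protein-coding gene, a subset taken after the values were seen, SMARCA1 occupied 1.59% and 7.32%, against 35.03% and 49.04% for Orc6, and 25.5% had Orc6 in both libraries with no SMARCA1. On chromosome 6, which holds 155 of the tRNA genes, SMARCA1 occupied 3 and 2, against 44 and 77 for Orc6 and 8 and 11 for OGG1. TRH-GTG1-1 and TRK-CTT2-1, a histidine and a lysine tRNA gene on chromosome 1 that share a region, had Orc6 at percentiles 94.0 and 97.6 and no SMARCA1. TRL-AAG2-3, a leucine tRNA gene on chromosome 14, had Orc6 at 89.6 and 96.6 and no SMARCA1. Among the 7 genes with both antibodies, TRG-CCC2-1, a glycine tRNA gene, had SMARCA1 at 85.4 and 77.8 and Orc6 at 89.3 and 97.8. Leaving out 1 library at a time gave 139 to 193 tRNA genes with Orc6 and no SMARCA1. The rule then asks for fewer libraries, so this count could not fall. Copies of 1 tRNA are near-identical, so reads can be placed on the wrong copy.

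Targets of p53 and of YAP and TEAD had both antibodies most often among the 20 gene lists. Of 18 p53 targets, SMARCA1 occupied 10 and 11, against 15 and 17 for Orc6, and 8 had both in all 4 libraries (44.4%, beside 6.58% of all genes). These were CDKN1A, DDB2, GADD45A, PLK3, PPM1D, RRM2B, TP53I3 and ZMAT3. CDKN1A, the cell cycle inhibitor p21, had SMARCA1 at percentiles 77.4 and 94.4 and Orc6 at 96.3 and 95.9. SESN1 and SESN2 had Orc6 alone (11.1%, beside 16.9% of all genes). FAS had no region at the ends of its gene record, although its RefSeq start site, which lies inside the record, had a region in SMARCA1 replicate 2 and in both Orc6 libraries. Of 17 YAP and TEAD targets, SMARCA1 occupied 8 and 10, against 15 and 16 for Orc6. Both were in all 4 libraries at 7 (41.2%, beside 6.58% of all genes). CCN1, a secreted matrix protein, had SMARCA1 at 96.0 and 98.1 and Orc6 at 95.7 and 98.7, and AXL, a receptor kinase, had SMARCA1 at 92.7 and 97.6 and Orc6 at 96.0 and 97.8. OGG1 was frequent at both lists too, with 14 and 15 of 18 and 14 and 15 of 17.

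Signalling and immediate early genes divided between the patterns. Of 12 inhibitors of differentiation and TGF-beta feedback genes, 4 had both antibodies in all 4 libraries and 4 had Orc6 alone (33.3% each, beside 6.58% and 16.9% of all genes). ID1 had SMARCA1 at percentiles 95.0 and 98.7 and Orc6 at 97.7 and 98.9, while ID2, BAMBI, SKIL and SMAD7 had Orc6 alone. Of 21 AP-1 and immediate early genes, EGR3, FOSL2, IER5 and JUN had both, EGR1, FOSB, JUND and NR4A1 had Orc6 alone, and 4 had no region. Each of these 3 counts is 19.05%, beside 6.58%, 16.9% and 41.3% of all genes. FOSL2 had SMARCA1 at 97.1 and 99.0 and Orc6 at 99.7 and 99.7. EGR1 had Orc6 at 93.9 and 91.8 and no SMARCA1. Of 18 NRF2 targets 4 had both, among them NQO1 and the ferritin genes FTH1 and FTL, and 6 had Orc6 alone (22.2% and 33.3%, beside 6.58% and 16.9%). SOD2, 1 of the 6, had a SMARCA1 replicate 2 region at its RefSeq start site. FAS, SOD2 and HMGXB4 were the 3 genes, of 158 list members with no region or Orc6 alone and a known start site, where the start site differed in this way.

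Genes for the machinery of replication and repair had Orc6 in most members. Over all genes SMARCA1 occupied 7.88% and 21.7%, against 39.6% and 55.9% for Orc6, so more genes in replicate 2 is general to both antibodies. Of 28 origin licensing and firing genes, SMARCA1 occupied 7 and 16 (25% and 57.1%), against 17 and 26 for Orc6 (60.7% and 92.9%). CDC45, CDC7, MCM3, MCM5, MTBP and ORC2 had both in all 4 libraries (21.4%, beside 6.58% of all genes). CDT1, DBF4, GINS4 and MCM10 had Orc6 alone (14.3%, near the 16.9% of all genes). Of 25 replication fork genes, SMARCA1 occupied 4 and 13, against 15 and 20, and 3 had both (12%, beside 6.58% of all genes). Of 19 base excision repair genes, SMARCA1 occupied 2 and 8, against 14 and 18. PARP2 was the 1 member with both (5.26%, near the 6.58% of all genes). NEIL1, NTHL1, PARP1, TDG and XRCC1 had Orc6 alone (26.3%, beside 16.9% of all genes). Of 23 double-strand break repair genes, SMARCA1 occupied 5 and 11, against 13 and 20, with both in all 4 libraries at 4 and Orc6 alone at 4 (17.4% each, beside 6.58% and 16.9% of all genes).

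The genes of the ISWI remodellers themselves had SMARCA1 about as often as genes at large. Of 14, SMARCA1 occupied 1 and 4 (7.14% and 28.6%, beside 7.88% and 21.7% of all genes), against 7 and 10 for Orc6. CHRAC1, a histone-fold subunit, was the 1 with both in all 4 libraries (7.14%, near the 6.58% of all genes). It had SMARCA1 at percentiles 92.0 and 98.0 and Orc6 at 99.0 and 99.6. BAZ1A, BAZ2A, BAZ2B and BPTF, large partner subunits, had Orc6 alone (28.6%, beside 16.9% of all genes). The gene for SMARCA1 itself was among the 4 with no region at the ends of the gene record, of which HMGXB4 had regions of SMARCA1 replicate 1 and both Orc6 libraries at its RefSeq start site. Of 77 cytosolic ribosomal protein genes, SMARCA1 occupied 12 and 38, against 54 and 66 for Orc6. Both were at 10 (13.0%, beside 6.58% of all genes) and Orc6 alone at 20 (26.0%, beside 16.9%).

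Olfactory receptor genes, which are silent outside the nose, had few regions of either antibody. Of 390 olfactory receptor genes, SMARCA1 occupied 4 and 2, against 13 and 26 for Orc6, and 361 (92.6%, beside 41.3% of all genes) had no region. Of 246 ZNF genes of chromosome 19, SMARCA1 occupied 5 and 15 (2.03% and 6.10%), against 29 and 88 for Orc6 (11.8% and 35.8%), each below its share of all genes. The 53 clustered protocadherin genes divided by replicate number: replicate 1 had 0 for SMARCA1 and 0 for Orc6, and replicate 2 had 22 for SMARCA1 and 25 for Orc6, while OGG1 had 23 and 23. All 22 SMARCA1 genes rest on 1 region, at the end position that 22 PCDHG genes share, and the 25 Orc6 genes on 5 regions. The part of the batch in this was not tested. Of 12 hepatocyte genes SMARCA1 occupied 1 and 0, against 0 and 1 for Orc6. Of 12 blood cell genes SMARCA1 occupied 0 and 0, against 1 and 2. Of 11 neuron genes SMARCA1 occupied 1 and 1 (9.09% each), against 3 and 4 for Orc6 (27.3% and 36.4%). Both antibodies were in all 4 libraries at 1 neuron gene (9.09%, beside 6.58% of all genes). Over all genes the shares were 7.88% and 21.7% for SMARCA1, against 39.6% and 55.9% for Orc6. Of 23 mesenchymal and bone genes, the list nearest to the osteosarcoma label, SMARCA1 occupied 3 and 4 (13.0% and 17.4%), against 10 and 11 for Orc6 (43.5% and 47.8%), near the shares of all genes. FN1, SPARC and VIM had both in all 4 libraries (13.0%, beside 6.58% of all genes). Occupied ends are not expression, which was not measured.

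**Figure D5:**
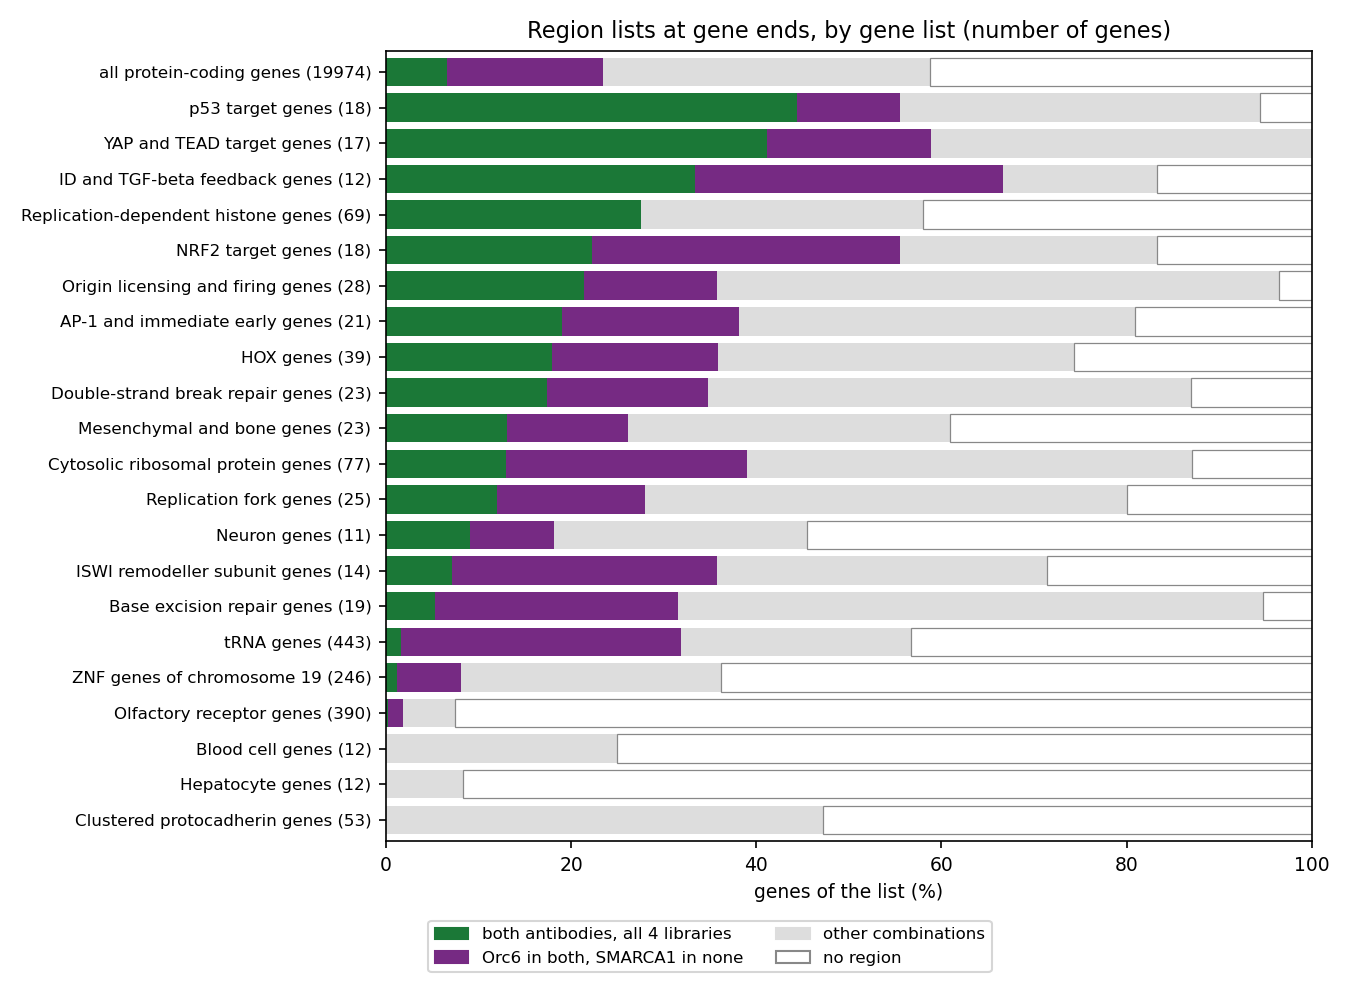
Percent of the genes of each list (horizontal axis, with the number of genes in brackets) that had both antibodies in all 4 libraries (green), Orc6 in both and SMARCA1 in none (purple), another combination (grey) or no region (white). The p53 targets reach 44.4% green, the histone genes have no purple, and tRNA genes are 30.2% purple and 1.58% green, beside 16.9% and 6.58% over all protein-coding genes.

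OGG1 was common at genes with both antibodies. It occupied 88.6% of the 1315 such genes in both libraries, against 73.0% of the 3370 with Orc6 alone and 18.0% of the 8246 with neither. Gene length did not separate the first 2, with medians of 30.7 and 30.6 kb, against 17.1 kb for genes with no region.

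Promoter sequences were described at start sites with both antibodies and at those with Orc6 alone, with no test. All 4 libraries met at 915 start sites and Orc6 alone at 2479. The median GC content of the 300 bases was 63.7% at the start sites with both antibodies, against 66.3% at those with Orc6 alone, 59.0% at the 7083 with no region and 62.7% over all 15812. TATAAA was present in 8.52% of promoters with both antibodies, against 5.04% with Orc6 alone, 13.9% with no region and 9.64% of all. GGGCGG, the GC box, was present in 67.9% against 73.6%, with 44.9% at no region and 58.5% of all. The AP-1 motif TGANTCA was present in 5.03% against 4.48% (5.76% of all), the TEAD motif GGAATG in 12.5% against 10.97% (11.7% of all), and CACGTG, the E-box, in 7.10% against 10.6% (8.87% of all). Both strands were searched and a promoter could hold several motifs. Of the 69 histone genes 64 had a promoter entry, and 65.6% of these held TATAAA and 84.4% CCAAT, with 36.3% of all promoters holding CCAAT. Histone promoters with both antibodies at the start site (18) held TATAAA in 72.2% and CCAAT in 77.8%, and those with no region (27) held them in 51.9% and 85.2%.

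Both antibodies were unevenly spread over chromosomes. Chromosome 8 held 9.45% and 7.89% of SMARCA1 regions, against 7.50% and 6.68% of Orc6 regions, with 4.79% of the genome span. Of its loci with Orc6 in both libraries, 28.4% had SMARCA1 in both, the highest share of any chromosome and close to the 27.8% of chromosome 4. The X chromosome, with 5.13% of the span, held 0.315% and 0.317% of SMARCA1 regions, against 0.483% and 0.625% of Orc6 regions, and 10.1% of its loci with Orc6 in both had SMARCA1 in both. Chromosomes 13, 16 and 19 were low as well, at 14.0%, 12.4% and 12.2%. On chromosome 8 the loci with both antibodies were densest at chr8:130000001-131000000 and chr8:133000001-134000000, with 15 each, beside 14 and 18 loci with Orc6 alone. The first holds CYRIB, ASAP1 and ADCY8, and the second TG, SLA, CCN4, NDRG1 and ST3GAL1.

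Some long genes held many shared loci along their bodies. GPHN, the gene of the scaffold protein gephyrin, held 11 loci with both antibodies in all 4 libraries and 7 with Orc6 alone over its 1227.2 kb on chromosome 14. DST, LRMDA and SUGCT held 8 loci each with both antibodies, and 3, 2 and 2 with Orc6 alone. Over all loci, 4179 had both antibodies and 9997 had Orc6 alone. More loci with Orc6 alone, the general order, were held by RGS6 and BCAS3, with 6 and 11 and with 5 and 11. These genes are examples with many shared loci, picked after the data were seen.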

How the data were processed

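Per the submitters' processing notes, the build was hg38 and the tools were SEACR 1.1, which calls regions from CUT&RUN signal, besides Bowtie2, SAMtools, deepTools, bedtools, DESeq2 and DiffBind. Their settings and controls are not given in the sources read. The deposited lists give, per region, a total and a maximum signal made by the authors, whose normalization is not given, so signal only ranked regions within a list. Each list was called on 1 library. Regions on chromosomes 1 to 22 and X were kept, which left out 33 and 48 SMARCA1 and 144 and 227 Orc6 regions. Per the labels' protocols, 500000 cells were fixed in 0.1% formaldehyde for 1 min.

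Gene positions, symbols and promoters came from RefSeq on GRCh38.p14, the release of the same build. Overlap meant at least 1 shared bp. Libraries were compared by exact two-sided permutation (Python 3.11.15, numpy 2.4.6, pandas 2.3.3), checked on simulated data. The labels record a batch equal to the replicate number, so the numbers pair the libraries, but SMARCA1 replicate 1 was overlapped more by Orc6 replicate 2 (98.7%) than by replicate 1 (83.7%).

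Genes named were the members of 20 lists in each occupancy pattern (at most 15 in alphabetical order for the patterns of a single antibody) and the 10 of highest mean percentile; loci were the 5 highest per class. Members, lists and rules were chosen with earlier results of these data known. Further genes, tRNA genes and gene bodies were added after seeing values. Some genes of the rule are left out. The alternatives covered list length, covered bases, region width, signal rank, windows, overlap, autosomes and libraries left out. The series' own Orc6 list, of 13557 regions, has no sample named for it and served as an alternative. The other 22 of the 34 samples entered no comparison, 8 of them being counted in the total of regions alone, and the authors' tables of SMARCA1 windows were not used here.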

Additional observations from a re-analysis of the deposited data

How the results depend on the processing

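The number of regions per library and the genes occupied were lower for SMARCA1 under every alternative run except equal covered bases. There the log2 difference of region number was 1.87 and the difference in genes occupied 5.20 points. The bases covered were lower for SMARCA1 under every alternative run. Leaving out 1 library at a time gave -2.86 to -1.41 for region number, -2.96 to -1.94 for bases covered (both log2), -1543.75 to 19.25 bp for median width, -41.1 to -24.8 points for genes occupied and -4.89 to 8.85 points for the share at gene ends. That share was -15.6 points at equal covered bases, -11.7 at equal list length and -6.19 in the upper 50% of each list, against 1.98 in full lists. With the replicate block the values were the same (-2.14, -2.45, -762.25, 1.98 and -33.0), with p = 0.5 for all but the share at gene ends, whose p was 1 (exact test). Neither test can pass a threshold with these libraries, so no call could be made or changed.

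The share of SMARCA1 regions overlapped by Orc6, 90.9% on average, was 83.7% to 98.1% without 1 library, 25.4% at equal covered bases, 56.5% at equal list length, 66.2% with the series' Orc6 list and 68.2% without regions wider than 10 kb. The reverse share, 19.96%, was 16.2% to 23.7% without 1 library, 72.0%, 50.2% and 41.7% under the first 3 of these, and 12.8% when 50% of the region had to be covered. It was within the spread of the pairs under the others run.

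Genes with SMARCA1 alone, 2 in full lists, numbered 3 to 40 without 1 library, 516 at equal covered bases, 97 at equal list length, 1 with windows of 500 bp and 137 without regions wider than 10 kb. Genes with Orc6 alone, 3370, numbered 3541 to 6672 without 1 library, 66 at equal covered bases and 618 at equal list length. Genes with both, 1315, numbered 1316 to 3834 without 1 library, 342 and 821 under those, 559 in the upper 50% and 760 without wide regions. Chosen after seeing the data, loci with SMARCA1 alone, 9, numbered 22 to 389 without 1 library and 644 without wide regions. Loci with Orc6 alone, 9997, numbered 10961 to 51603 without 1 library and 5365 in the upper 50%. Loci with both, 4179, numbered 4314 to 8105, then 2048 in the upper 50% and 2331 without wide regions. Fewer regions enter the equal, upper and narrow lists by construction. With 1 library left out the rule for a gene asks for fewer libraries, so no gene count could fall. Loci followed the same rule but were merged again from the remaining lists. The cause of the other changes was not tested. Region lists without reads set no limit of depth.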
